A study of Rattus norvegicus with 32 samples.

Results

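The genes described here are the core autophagy genes of the rat, followed in liver sinusoidal endothelial cells (LSECs) through the stages of a toxic liver disease. They were taken by name: each gene whose symbol is Atg and a number, with or without a further letter or digit, Wipi1 and Wipi2, the Gabarap genes, Map1lc3a and Map1lc3b, together with Becn1, Ulk1, Ulk2, Sqstm1, Nbr1, Optn, Rb1cc1, Pik3c3, Pik3r4, Uvrag, Ambra1 and Bnip3. This gave 37 of 32623 genes, measured in 32 libraries, and each symbol stood for 1 gene. All 37 had enough reads to be tested in each comparison.

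Autophagy is the route by which a cell wraps part of its own cytoplasm in a double membrane and delivers it to the lysosome. Its proteins act in order. A kinase complex starts the process, a lipid kinase complex around Beclin 1 marks the growing membrane, lipid transfer proteins feed it, 2 ubiquitin-like conjugation systems attach small ATG8 proteins (the LC3 and GABARAP proteins) to it, and cargo receptors tie what is to be degraded to these ATG8 proteins. LSECs are the fenestrated cells that line the capillaries of the liver, and autophagy is one of the processes that endothelial cells use under oxidative and nutrient stress. Messenger RNA shows how much of each gene was expressed and does not measure how much cargo passed through the pathway.

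RNA was sequenced from LSECs of male Wistar Han rats that were untreated (healthy, n = 6) or had inhaled carbon tetrachloride (CCl4), a hepatotoxin, for 2 weeks (acute injury, n = 5), 6 weeks (fibrosis, n = 5) or 12 to 14 weeks (cirrhosis, n = 6). According to the study's methods the CCl4 model used phenobarbital in the drinking water, LSECs were isolated some days after the last dose, and whether the healthy rats also drank phenobarbital was not given in the sources used here. The cells came from a density gradient in iodixanol after perfusion and digestion of the liver, without a sort on a surface marker. A second experiment with thioacetamide (TAA) has 5 libraries labelled control (T1-5) and 5 labelled TAA control (T10-15). The series and the study describe healthy and TAA-cirrhotic Sprague-Dawley rats, while the sample labels name Wistar Han for all libraries, so that which of these groups received TAA was not settled and the TAA comparison is given by its labels only.

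Levels are given as CPM, read counts scaled to a common library size with TMM factors, set separately for the CCl4 and the TAA libraries. Differences are log2 fold changes ± standard error from limma-voom, and a gene was called higher or lower at an unadjusted p-value under 0.05 together with a fold change above 1.5, the rule of the study. Adjusted p-values come from the same limma-voom fits, with the Benjamini-Hochberg correction across every gene tested. The total per library ranged from 25646531 to 46464289 counts. Levels of different genes were not compared with each other, because transcript lengths were not used here.

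The libraries differed far beyond the autophagy genes. The summed level of 13 LSEC markers was 18809 to 38135 CPM in healthy LSECs and 18838 to 24204 CPM in cirrhosis, and only 4421 to 5160 CPM in acute injury and 3138 to 4346 CPM in fibrosis. Stab2, a scavenger receptor of LSECs, went from 1470 to 5056 CPM in healthy LSECs to 99.6 to 273 CPM in acute injury, while the general endothelial cadherin Cdh5 was at 775 to 1763 CPM and 1324 to 2154 CPM in the same groups. Of the markers of other cells, 10 of 10 hepatocyte and 10 of 10 macrophage markers were lower in acute injury than in healthy LSECs. So were 12 of 12 dissociation stress genes, which are not markers of a cell type. Of all genes tested, 38.3% were called lower there. Hepatocyte markers summed to 1353 to 28644 CPM in healthy LSECs, 148 to 933 CPM in acute injury, 1329 to 5263 CPM in fibrosis and 3065 to 14843 CPM in cirrhosis. Macrophage markers summed to 374 to 4062 CPM, 84.8 to 249 CPM, 37.3 to 234 CPM and 911 to 3231 CPM in the same order, and no marker of either list was at 0 in any library. The stress genes summed to 34411 to 68640 CPM in healthy LSECs, 1343 to 4934 CPM in acute injury, 4203 to 6712 CPM in fibrosis and 23273 to 41848 CPM in cirrhosis. Stellate cell markers summed to 284 to 785 CPM, 1315 to 2133 CPM, 1301 to 1746 CPM and 616 to 1907 CPM, although 5 of the 8 tested were called lower and only Reln higher in acute injury. Cholangiocyte, neutrophil and lymphocyte markers summed to medians of 8.13, 10.8 and 45.0 CPM in healthy LSECs and 0.691, 0.346 and 1.14 CPM in acute injury, where up to 2 of 6, 4 of 6 and 4 of 8 of them were at 0 in a library. These lists moved between the groups, and their part in the results was not tested. In RNA from many cells at once, fewer cells of a kind and less RNA per cell cannot be told apart.

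The autophagy genes moved in both directions at each stage. In acute injury 14 of 37 were called higher and 10 lower than in healthy LSECs, against 35.8% and 38.3% of the 14317 genes tested. In fibrosis 15 were higher and 11 lower, against 35.8% and 35.4% of 14538 genes. In cirrhosis 10 were higher and 13 lower, against 28.8% and 25.7% of 14789 genes. The median log2 fold change over the 37 genes was 0.02, -0.17 and -0.24 in these stages, beside -0.09, -0.03 and 0.07 over all genes. Each called autophagy gene also had an adjusted p-value under 0.05. The split of higher and lower calls depends on the scaling. Without TMM factors it was 43.3% to 31.4% of all genes in acute injury, 43.4% to 28.1% in fibrosis and 40.0% to 16.2% in cirrhosis, and 18, 17 and 13 autophagy genes were then called higher and 5, 7 and 8 lower. The median of the 37 genes was then 0.43, 0.23 and 0.10, so that it changed sign in fibrosis and cirrhosis. In fibrosis it was also above 0 with weights per library (0.05) and without healthy replicates 5 and 6 (0.10). The 3 comparisons share the 6 healthy libraries, and a high or low healthy library moves all of them together.

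By role, all 4 cargo receptors were called higher in acute injury and in fibrosis, and 3 of 5 ATG8 genes were called lower in both, beside 35.8% of all genes higher and 38.3% lower in acute injury and 35.4% lower in fibrosis. The initiation and conjugation genes were divided, with members rising and falling side by side. In cirrhosis the receptors split, with 2 higher, 1 lower and 1 not called. There 3 of 5 initiation genes were lower, beside 28.8% of all genes higher and 25.7% lower. These are counts of few genes and were not tested as groups.

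**Figure D1:**
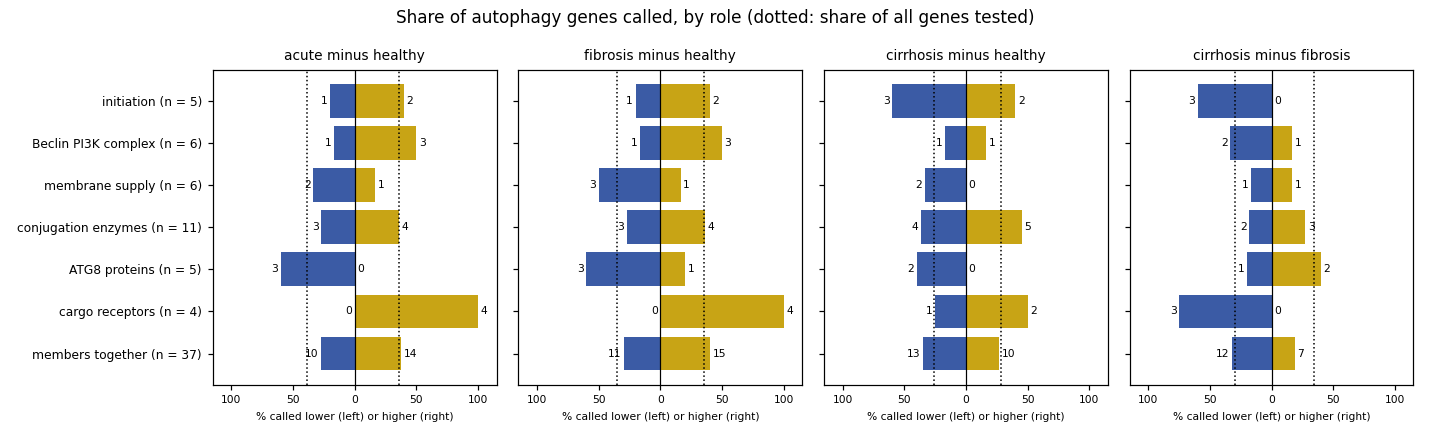
Percentage of the genes of each role called lower (bars to the left) or higher (bars to the right) in 4 comparisons, with the number of genes at the end of each bar and the percentage of all genes tested as dotted lines. All 4 cargo receptors were called higher in acute injury and fibrosis. In cirrhosis against fibrosis 3 of the 4 were called lower and Optn was not called.

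Over the 3 stages, 8 genes were called higher in each (Atg12, Atg3, Atg4c, Becn1, Nbr1, Optn, Rb1cc1 and Ulk2) and 8 lower in each (Ambra1, Atg2a, Atg4d, Atg7, Atg9a, Gabarap, Map1lc3a and Ulk1). A further 5 genes, Atg14, Atg5, Bnip3, Pik3c3 and Wipi2, were higher in acute injury and fibrosis and not called in cirrhosis. Sqstm1 was higher in both earlier stages and lower in cirrhosis, and Atg4a did the reverse. Atg101, Atg13, Atg16l2 and Atg4b were called in cirrhosis alone, each lower, and Atg10 in cirrhosis alone, higher. In fibrosis alone Gabarapl1 was higher and Atg9b lower, and Gabarapl2 was lower in the 2 earlier stages. The remaining 6, Atg16l1, Atg2b, Map1lc3b, Pik3r4, Uvrag and Wipi1, were not called against healthy LSECs at any stage. How many of all genes tested showed each pattern was not counted. The 3 comparisons share the healthy libraries, so these patterns are not set apart here from those of other genes.

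**Figure D2:**
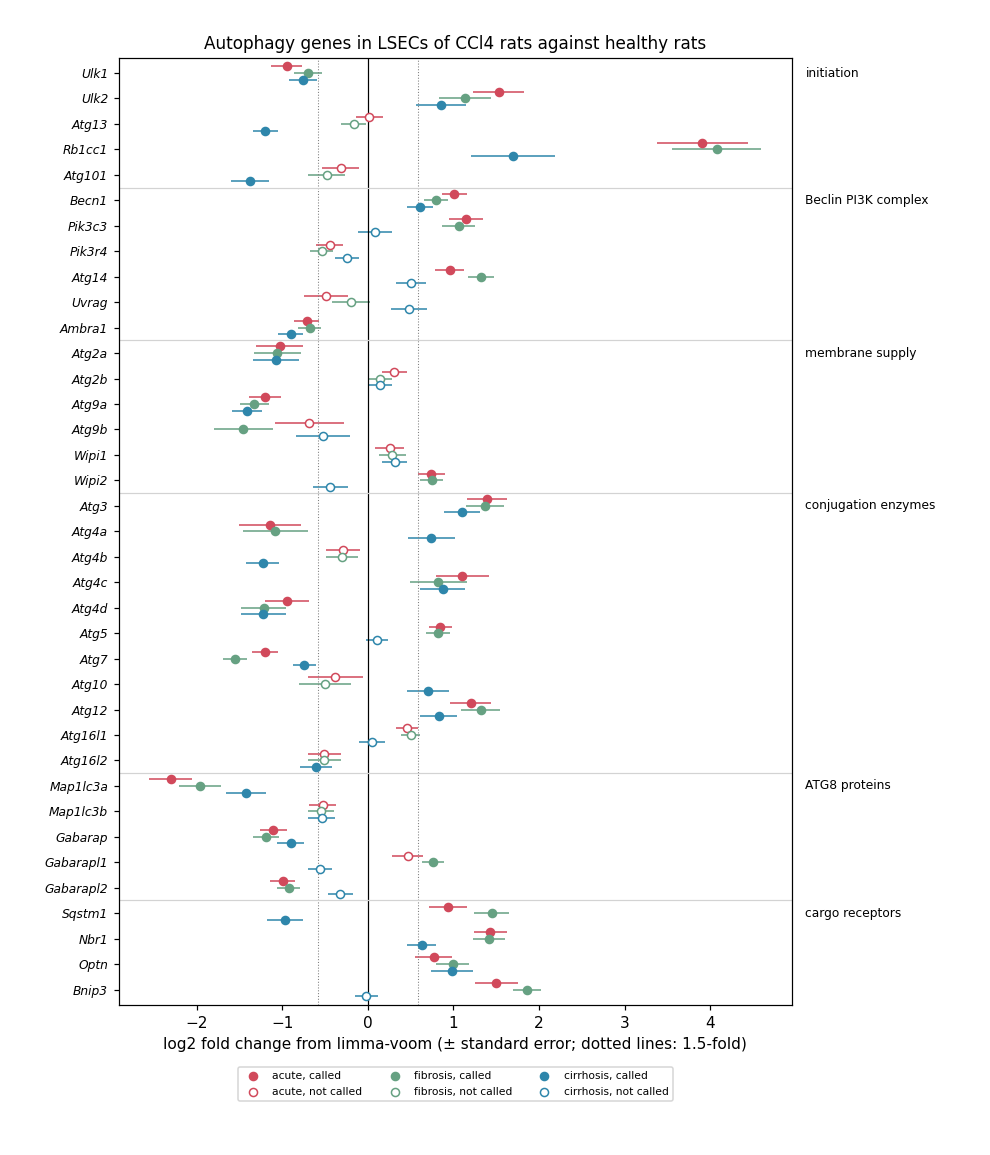
Log2 fold change against healthy LSECs (points) with its standard error (lines) for each of the 37 autophagy genes in acute injury (n = 5), fibrosis (n = 5) and cirrhosis (n = 6), grouped by role. Filled points were called, open points were not, and dotted lines mark a 1.5-fold change. Rb1cc1 stands farthest to the right in all 3 stages and Map1lc3a farthest to the left.

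Among the genes that start autophagy, Rb1cc1 moved most. It encodes FIP200, the scaffold that holds the ULK kinases, ATG13 and ATG101 together. Its level in healthy LSECs had a lowest value of 4.72, a median of 23.8 and a highest value of 57.1 CPM. In acute injury the 5 libraries were at 260, 258, 272, 222 and 393 CPM, and in fibrosis at 313, 343, 273, 304 and 282 CPM, all above each healthy library. In cirrhosis Rb1cc1 was at 48.2 to 85.3 CPM with a median of 53.1, a range that overlapped the healthy one. The difference was 3.91 ± 0.53 on the log2 scale in acute injury (adjusted p = 2.66e-05), a 15-fold change. It was 4.08 ± 0.52 in fibrosis (adjusted p = 2.01e-05) and 1.69 ± 0.49 in cirrhosis (adjusted p = 0.0105). The healthy libraries spread widely for this gene. Healthy replicates 2 and 4, with 4.72 and 7.08 CPM, had 26401 and 28644 CPM of hepatocyte markers. Replicates 1 and 3, with 21.2 and 26.3 CPM of Rb1cc1, had 14932 and 3665 CPM of them. Replicates 5 and 6, with 36.3 and 57.1 CPM, had 1353 and 23928 CPM. The part of these markers in the spread was not tested. Without healthy replicates 5 and 6, the highest ones, the change was 4.68 in acute injury, 4.77 in fibrosis and 2.35 in cirrhosis.

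The 2 ULK kinases, which phosphorylate the next complex, moved in opposite directions. Ulk1 was at 101 to 191 CPM in healthy LSECs with a median of 139. In acute injury it was at 69.3, 69.2, 70.4, 62.0 and 95.5 CPM, in fibrosis at 84.9, 78.0, 96.7, 76.0 and 85.8 CPM, and in cirrhosis at 68.4 to 92.4 CPM with a median of 86.9. No diseased library reached the lowest healthy one. The change was -0.94 ± 0.18, -0.70 ± 0.16 and -0.75 ± 0.16 in the 3 stages (adjusted p = 0.000434, 0.00189 and 0.00210). Without TMM factors the values of Ulk1 were -0.53, -0.30 and -0.41, and it was not called at any stage. Ulk2 was at 31.8 to 118 CPM in healthy LSECs with a median of 57.7. It stood at 165, 174, 181, 167 and 182.4 CPM in acute injury, at 123, 138, 120, 126 and 144 CPM in fibrosis, and at 83.1 to 154 CPM with a median of 113 in cirrhosis. Acute and fibrotic libraries lay above all healthy ones, and the cirrhotic libraries overlapped healthy replicates 5 and 6, which were at 105 and 118 CPM. Ulk2 changed by 1.53 ± 0.30, 1.14 ± 0.30 and 0.85 ± 0.29 (adjusted p = 0.000538, 0.00453 and 0.0220).

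Atg13 and Atg101 encode the 2 partner proteins of the ULK complex that stabilise each other, and both were called lower in cirrhosis and in neither earlier stage. Atg101 was at 29.5 to 74.9 CPM in healthy LSECs with a median of 66.2, at 47.8, 46.4, 43.8, 47.0 and 47.1 CPM in acute injury, and at 38.1, 38.9, 41.8, 42.5 and 41.5 CPM in fibrosis. In cirrhosis it was at 21.1 to 27.3 CPM with a median of 22.2, under each healthy library. The change was -0.32 ± 0.22, -0.48 ± 0.22 and -1.37 ± 0.22 (adjusted p = 0.201, 0.0649 and 0.000355). Healthy replicate 6, at 29.5 CPM, lay apart from the other 5 healthy libraries, which held 63.2 CPM or more. With it and replicate 5 left out, Atg101 was also called lower in fibrosis. Atg13 was at 34.0 to 53.5 CPM in healthy LSECs and at 17.2 to 20.5 CPM in cirrhosis, with a change of -1.2 ± 0.15 (adjusted p = 0.000112).

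In the Beclin 1 complex, 3 of 6 genes rose in the earlier stages, beside 35.8% of all genes called higher in acute injury and in fibrosis. Becn1 encodes Beclin 1 itself, the subunit around which regulators of the lipid kinase assemble. It was at 45.5 to 74.4 CPM in healthy LSECs with a median of 64.2, at 117, 119, 120, 126 and 117 CPM in acute injury and at 103, 106, 97.2, 98.4 and 99.9 CPM in fibrosis. In cirrhosis its level was 73.5 to 107 CPM with a median of 95.1. The acute and fibrotic libraries lay above all healthy ones, and the cirrhotic range touched the healthy range with 1 library. Becn1 changed by 1.01 ± 0.15, 0.79 ± 0.14 and 0.61 ± 0.15 (adjusted p = 5.32e-05, 0.000314 and 0.00426). The cirrhotic value stood close to the 1.5-fold line and fell under it without cirrhosis replicate 4 (0.58) or 6 (0.56) or without healthy replicate 1 (0.52) or 4 (0.56).

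Pik3c3, the catalytic subunit VPS34, and Atg14, which directs the complex to the site where autophagosomes form, rose in the earlier stages. Pik3c3 was at 12.8 to 28.6 CPM in healthy LSECs and at 41.8 to 47.1 CPM in acute injury, with no overlap, and changed by 1.14 ± 0.20 (adjusted p = 0.000195). Atg14 went from 11.5 to 20.7 CPM in healthy LSECs to 33.9 to 39.0 CPM in fibrosis, a change of 1.32 ± 0.15 (adjusted p = 7.08e-06). In cirrhosis neither was called. Pik3c3 was there at 16.8 to 25.5 CPM, with a difference of 0.08 ± 0.19, and Atg14 at 15.5 to 25.6 CPM, with a difference of 0.50 ± 0.17 and an adjusted p of 0.0235. Atg14 was called higher in cirrhosis without TMM factors, with upper-quartile factors, with a CPM filter and with weights per library. The same held without healthy replicates 5 and 6.

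Uvrag encodes the Beclin partner that takes the place of ATG14 in a second complex, which acts on endosomes and autophagosome maturation. It was at 71.4 to 168 CPM in healthy LSECs with a median of 114, at 78.2, 79.5, 82.2, 55.4 and 111 CPM in acute injury and at 98.6, 100, 106, 90.8 and 81.6 CPM in fibrosis. In cirrhosis its level was 132 to 180 CPM with a median of 160. It was not called against healthy LSECs, with differences of -0.49 ± 0.26, -0.20 ± 0.23 and 0.48 ± 0.21. In cirrhosis Uvrag was called without TMM factors, with upper-quartile factors, with weights per library and without healthy replicates 5 and 6. In acute injury it was called without acute replicate 8 or without healthy replicate 2. Ambra1, a positive regulator of Beclin 1, was lower at each stage, at 71.1 to 113 CPM in healthy LSECs and 49.6 to 60.3 CPM in cirrhosis, a change of -0.90 ± 0.14 (adjusted p = 0.000319). Without TMM factors Ambra1 stood at -0.30, -0.28 and -0.55 and was not called at any stage. Pik3r4, the regulatory subunit VPS15, was not called, with differences from -0.54 to -0.24.

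Of the 6 genes that supply membrane to the growing autophagosome, Atg9a and Atg2a were lower at each stage. Atg9a encodes the lipid scramblase carried by the seed vesicles. It was at 138 to 282.5 CPM in healthy LSECs with a median of 218, at 104, 96.1, 87.6, 74.4 and 102 CPM in acute injury, at 78.4, 82.7, 84.3, 80.4 and 88.3 CPM in fibrosis, and at 77.7 to 89.4 CPM with a median of 80.5 in cirrhosis. Every diseased library was under every healthy one. Atg9a changed by -1.2 ± 0.19, -1.32 ± 0.17 and -1.41 ± 0.17 (adjusted p = 8.51e-05, 2.33e-05 and 0.000105). Atg2a, which encodes the lipid transfer protein that works with ATG9A, fell by 1.03, 1.05 and 1.07 on the log2 scale, although its ranges overlapped the healthy one because healthy replicate 6 stood at 125 CPM and the other 5 between 217 and 440 CPM. Its paralog Atg2b was not called, with differences of 0.31, 0.14 and 0.14. Wipi2, the effector that recruits ATG16L1 to the membrane, was higher in acute injury (0.74 ± 0.15) and fibrosis (0.75 ± 0.13, adjusted p = 0.000292). Wipi1 was not called, with differences between 0.26 and 0.31. Atg9b had 10 to 205 counts per library, the fewest of all 37 genes, and fell in fibrosis by 1.45 ± 0.34 on the log2 scale (adjusted p = 0.00209).

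Of the 11 conjugation genes, 4 rose and 3 fell in acute injury, beside 35.8% of all genes called higher and 38.3% lower. Atg3 encodes the enzyme that transfers ATG8 proteins to the lipid. It was at 16.8 to 42.2 CPM in healthy LSECs with a median of 26.7, at 72.3, 69.8, 69.1, 60.6 and 82.0 CPM in acute injury, at 66, 68.8, 71.9, 65.2 and 67.3 CPM in fibrosis, and at 49.9 to 64.4 CPM with a median of 60.2 in cirrhosis. All diseased libraries lay above all healthy ones. The change was 1.39 ± 0.23, 1.37 ± 0.22 and 1.10 ± 0.21 (adjusted p = 0.000147, 0.000144 and 0.000895). Atg12 and Atg5 encode the 2 proteins that are joined to each other in the first conjugation system. Atg12 rose at all 3 stages, by 1.2, 1.32 and 0.83. Atg5 rose by 0.85 and 0.82 in the earlier stages and was not called in cirrhosis, where its difference was 0.11 ± 0.13.

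Atg7, which encodes the enzyme that activates both ATG12 and the ATG8 proteins, moved the other way. Its level in healthy LSECs was 34.6 to 53.2 CPM with a median of 48.4. It stood at 19.4, 21.4, 22.0, 20.04 and 15.6 CPM in acute injury, at 15.3, 16.9, 13.4, 16.1 and 13.7 CPM in fibrosis, and at 25.4 to 29.9 CPM with a median of 27.0 in cirrhosis. Every diseased library was below every healthy one. Atg7 changed by -1.2 ± 0.15, -1.55 ± 0.14 and -0.74 ± 0.13 (adjusted p = 1.42e-05, 1.26e-06 and 0.000679). In cirrhosis it was not called without TMM factors, at -0.40. The activating and the transferring enzyme of the same chain differed in direction at each stage.

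The 4 Atg4 genes encode proteases that trim ATG8 proteins before and after their use, and they did not move together. Atg4b fell in cirrhosis from 27.1 to 57.3 CPM in healthy LSECs to 18.0 to 21.6 CPM, by 1.23 ± 0.19 on the log2 scale (adjusted p = 0.000285). Atg4d fell at all 3 stages, by 0.94, 1.22 and 1.22, with the acute call lost without TMM factors (-0.54). Atg4c rose at all 3 stages, by 1.10, 0.83 and 0.88, from few reads (2.17 to 6.12 CPM in healthy LSECs). In fibrosis the call of Atg4c was lost when any of fibrosis replicates 12, 15 and 16 or healthy replicates 2, 3 and 4 was left out, with values from 0.675 to 0.782. Atg4a was at 2.43 to 3.35 CPM in acute injury, at 1.93 to 3.62 CPM in fibrosis and at 8.89 to 12.7 CPM in cirrhosis. Among healthy libraries Atg4a was at 3.29 to 6.02 CPM in replicates 1 to 4 and at 12.8 and 11.2 CPM in replicates 5 and 6. Its changes of -1.14, -1.08 and 0.74 therefore rest on how healthy LSECs are taken. Without replicates 5 and 6 they were -0.55 and -0.57, under the threshold, and 1.21, and without healthy replicate 2 the cirrhotic value was 0.55 and not called. Atg10, the enzyme that attaches ATG12 to ATG5, was higher in cirrhosis by 0.71 ± 0.25 and was not called without healthy replicate 1 (0.52). Of the 2 ATG16L genes, which complete the conjugation complex, Atg16l1 was not called (0.46, 0.50 and 0.05). Atg16l2 was at -0.60 ± 0.19 in cirrhosis, on the 1.5-fold line, and lost its call without cirrhosis replicate 4 (-0.58) or without healthy replicate 1 (-0.56), 3 (-0.55), 4 (-0.56) or 5 (-0.56).

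The ATG8 genes, whose products coat the autophagosome and bind the receptors, included 3 of 5 that were lower in acute injury and in fibrosis. Of all genes tested, 38.3% and 35.4% were lower in these stages. Map1lc3a, one of the LC3 genes, was at 92.3 to 274 CPM in healthy LSECs with a median of 215. It stood at 39.2, 36.5, 35.8, 32.3 and 43.6 CPM in acute injury, at 45.4, 47.8, 49.0, 45.3 and 43.0 CPM in fibrosis and at 65.7 to 80.1 CPM with a median of 67.9 in cirrhosis. All 16 diseased libraries were below the lowest healthy one, replicate 6. Map1lc3a changed by -2.30 ± 0.25, -1.96 ± 0.24 and -1.42 ± 0.24 (adjusted p = 4.59e-06, 1.66e-05 and 0.000405), which was the largest fall of any autophagy gene at each stage.

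Map1lc3b, the LC3 gene whose protein is the usual marker of autophagosomes, changed less. It was at 65.6 to 117 CPM in healthy LSECs with a median of 91.2, at 62.7, 59.7, 63.3, 55.95 and 59.6 CPM in acute injury, at 60.7, 59.2, 56.5, 57.4 and 57.0 CPM in fibrosis and at 54.3 to 71.2 CPM with a median of 59.9 in cirrhosis. Acute and fibrotic libraries lay under all healthy ones, and cirrhotic ones overlapped them. Its difference was -0.53 ± 0.15, -0.54 ± 0.15 and -0.54 ± 0.16 (adjusted p = 0.00760, 0.00539 and 0.0107), short of the 1.5-fold threshold each time. With healthy replicates 5 and 6 left out it was called lower at all 3 stages. RSEM, which estimated the counts, shared reads between Map1lc3b and other genes in all 32 libraries, and likewise for Gabarapl2, Nbr1, Atg9b and Wipi1, so that their counts are less certain. The same held for Atg2b in 28 libraries and for Bnip3 in 25.

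Gabarap was at 311 to 537 CPM in healthy LSECs, at 207 to 230 CPM in acute injury, at 187 to 210 CPM in fibrosis and at 222 to 280 CPM in cirrhosis, below each healthy library throughout. It changed by -1.10 ± 0.16, -1.19 ± 0.15 and -0.90 ± 0.16 (adjusted p = 4.33e-05, 1.90e-05 and 0.000603). Without TMM factors the cirrhotic value was -0.56 and not called. Gabarapl2, whose protein is also known as GATE-16, was at 121 to 191 CPM in healthy LSECs with a median of 131. In acute injury it was at 65.9, 74.5, 63.1, 61.2 and 75.9 CPM, in fibrosis at 67.4, 70.4, 75.5, 68.1 and 67.0 CPM and in cirrhosis at 88.5 to 127 CPM with a median of 112. Gabarapl2 fell by 0.99 ± 0.15 and 0.92 ± 0.13 in the 2 earlier stages (adjusted p = 5.65e-05 and 5.77e-05), and in cirrhosis, where its range met the healthy one, it stood at -0.32 ± 0.15. Without TMM factors its earlier values were -0.58 and -0.53, short of the threshold. Gabarapl1 was at 244 to 386 CPM in healthy LSECs and rose to 435 to 555 CPM in fibrosis, by 0.76 ± 0.13 (adjusted p = 0.000194). In cirrhosis it was at 184 to 224 CPM, below each healthy library, with a difference of -0.56 ± 0.14 (adjusted p = 0.00424) that fell short of the 1.5-fold threshold. It was called lower there without healthy replicate 1 or 6, without cirrhosis replicate 2 and with weights per library.

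**Figure D3:**
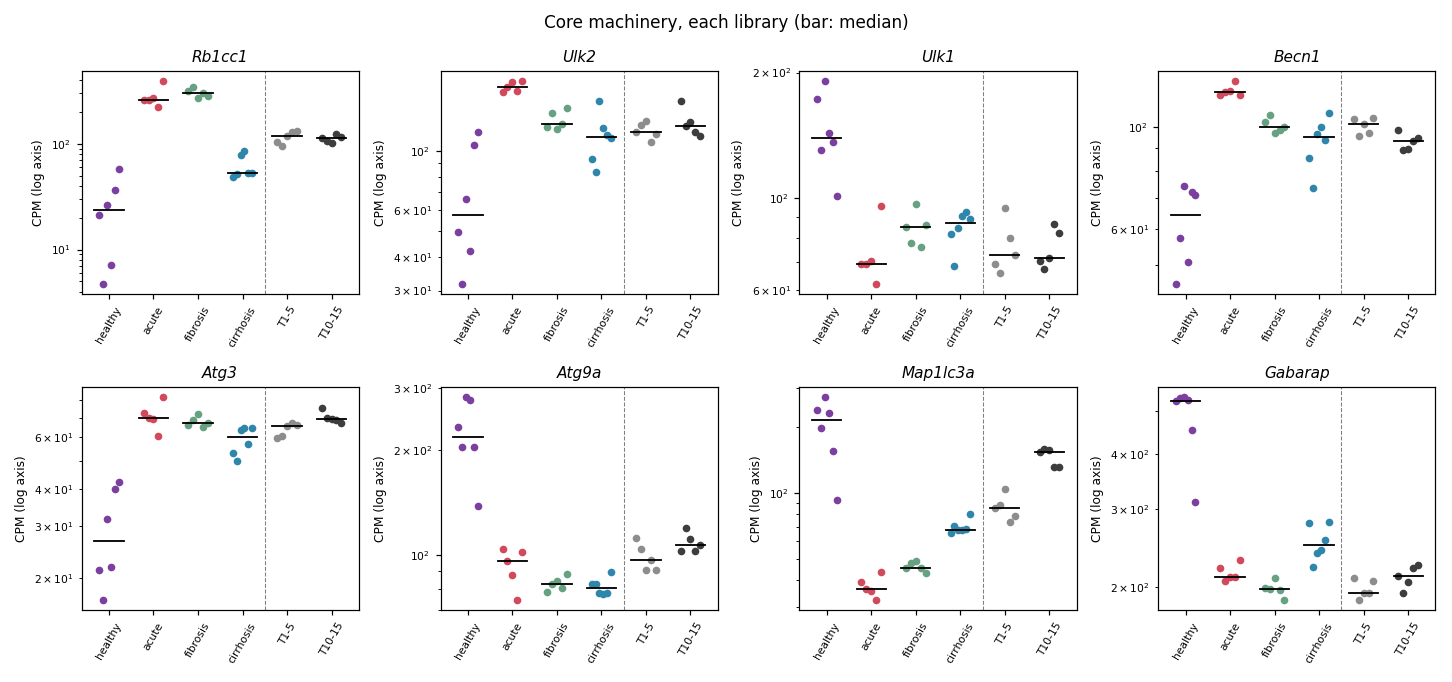
CPM of 8 genes of the autophagy machinery in each library (points, log axis) with the median of the group (bars) for the 4 CCl4 groups and, after the dashed line and on a scale of its own, the TAA experiment. Rb1cc1 is above the healthy range in each acute and fibrotic library, Atg9a, Map1lc3a and Gabarap are below it in all diseased CCl4 libraries, and the healthy points spread most for Rb1cc1.

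The 4 cargo receptors among the members rose together in the earlier stages. Other selective receptors went both ways, with 5 higher and 4 lower of 11 in acute injury, and 5 and 3 of 12 in fibrosis. Of all genes tested, 35.8% were higher in both stages, and 38.3% and 35.4% lower. Sqstm1 encodes p62, which carries ubiquitinated proteins to the autophagosome and is itself degraded there. It was at 560 to 1333 CPM in healthy LSECs with a median of 1039. It stood at 1962, 1683, 1874, 1387 and 2106 CPM in acute injury and at 2333, 2365, 2704, 2524 and 2504 CPM in fibrosis, all above each healthy library. In cirrhosis it was at 360 to 563 CPM with a median of 512, and only healthy replicate 6, at 560 CPM, was within that range. Sqstm1 changed by 0.94 ± 0.22 and 1.45 ± 0.20 in the earlier stages (adjusted p = 0.00199 and 4.64e-05) and by -0.96 ± 0.21 in cirrhosis (adjusted p = 0.00232).

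Bnip3 encodes a receptor in the outer mitochondrial membrane that is known for its induction in low oxygen. It was at 14.8 to 22.6 CPM in healthy LSECs with a median of 15.8. In acute injury it was at 37.1, 29.3, 75.8, 48.4 and 58.8 CPM, in fibrosis at 67.1, 54.9, 74.4, 54.4 and 47.8 CPM, all above the healthy range, and in cirrhosis at 14.5 to 17.9 CPM with a median of 17.1. The change was 1.5 ± 0.25 in acute injury and 1.86 ± 0.17 in fibrosis (adjusted p = 0.000143 and 1.09e-06), and the difference in cirrhosis was -0.02 ± 0.14 (adjusted p = 0.912).

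Optn encodes optineurin, a receptor for ubiquitinated mitochondria and bacteria. It was at 23.0 to 43.8 CPM in healthy LSECs with a median of 33.9, at 55.3, 43.9, 54.8, 49.5 and 72.3 CPM in acute injury, at 58.9, 68.7, 58.9, 61.7 and 62.3 CPM in fibrosis and at 32.8 to 80.2 CPM with a median of 73.7 in cirrhosis. All but cirrhosis replicate 2, at 32.8 CPM, were above the healthy range. It rose by 0.77 ± 0.21, 0.99 ± 0.19 and 0.98 ± 0.24 (adjusted p = 0.00574, 0.000488 and 0.00461). Nbr1, a receptor related to p62 with a role in the removal of peroxisomes, went from 116 to 243 CPM in healthy LSECs to 384 to 475 CPM in acute injury and 390 to 427 CPM in fibrosis, with changes of 1.43 ± 0.19 and 1.42 ± 0.19 (adjusted p = 2.80e-05 and 2.50e-05). In cirrhosis Nbr1 was at 223 to 265 CPM, 0.63 ± 0.17 above healthy LSECs, and it lost this call without healthy replicate 1 (0.56) or 2 (0.54).

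**Figure D4:**
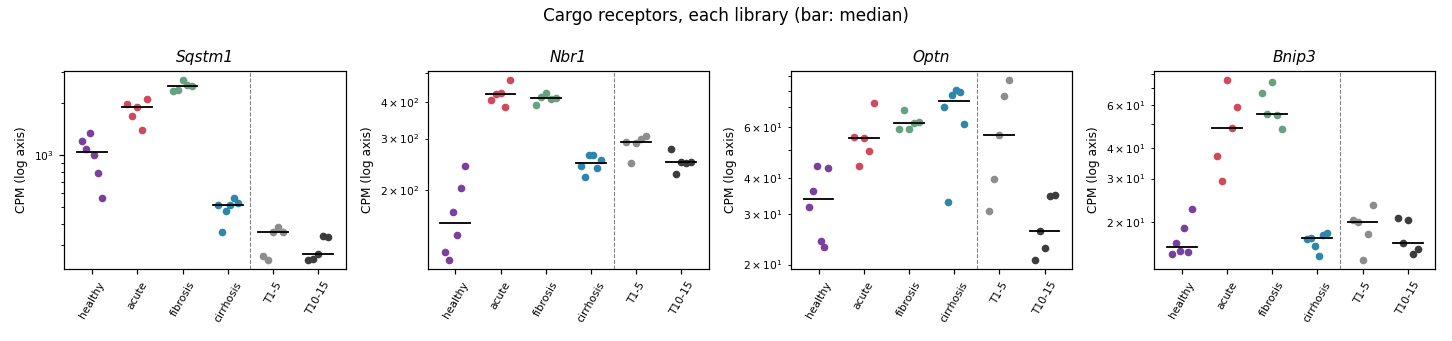
CPM of the 4 cargo receptor genes in each library (points, log axis) with the median of the group (bars), the CCl4 groups to the left of the dashed line and the TAA experiment to its right on a scale of its own. Sqstm1 rises from healthy LSECs to fibrosis and is lower in cirrhosis than in each acute or fibrotic library, and Bnip3 is high in acute injury and fibrosis and overlaps the healthy range in cirrhosis.

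Between acute injury and fibrosis no autophagy gene was called, either higher, against 14.3% of 13931 genes, or lower, against 1.39%. edgeR and DESeq2 also called 0 with the fold threshold. At an unadjusted p-value under 0.05 alone, limma-voom called 7 genes higher in fibrosis and 5 lower, against 19.9% and 15.8% of all genes under the same rule. The widest of these differences was that of Sqstm1, at 0.55 ± 0.11 (adjusted p = 0.00805), whose fibrotic libraries were all above the acute ones. Without acute replicate 8, the acute library highest in Sqstm1, that gene passed the fold threshold and was called higher, and Atg9b was called lower. Ulk2 differed by -0.34 ± 0.06 (adjusted p = 0.00714) and Map1lc3a by 0.39 ± 0.08 (adjusted p = 0.0104).

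Cirrhosis differed from fibrosis directly in 19 genes, 7 higher and 12 lower, against 34.5% and 29.7% of 15186 genes, with a median over the 37 genes of -0.04 beside 0.04 over all genes. This comparison shares the fibrotic libraries with the one above and no healthy library enters it. The largest falls were those of Sqstm1, Rb1cc1, Bnip3 and Gabarapl1. Sqstm1 fell by 2.35 ± 0.11 on the log2 scale (adjusted p = 3.52e-09), a 5.10-fold change. Rb1cc1 fell by 2.33 ± 0.16 (adjusted p = 5.78e-08), Bnip3 by 1.82 ± 0.12 (adjusted p = 3.56e-08) and Gabarapl1 by 1.27 ± 0.08 (adjusted p = 3.24e-08). In none of these 4, which were picked for the size of their fall, did the groups overlap. How many of all genes tested had no overlap was not counted. Wipi2, Atg13, Pik3c3, Atg4b, Atg101, Atg14, Nbr1 and Atg5 also fell, by 0.66 to 1.13.

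The 7 genes that were higher in cirrhosis than in fibrosis came from 4 of the 6 roles. Atg4a rose by 1.88 ± 0.16 (adjusted p = 4.74e-07), with all cirrhotic libraries above all fibrotic ones. Atg10 rose by 1.26 ± 0.13 (adjusted p = 2.56e-06), Atg9b by 0.97 ± 0.33 and Atg7 by 0.86 ± 0.08 (adjusted p = 1e-06). Uvrag rose by 0.73 ± 0.10 (adjusted p = 1.85e-05) and Gabarapl2 by 0.66 ± 0.08. Map1lc3a rose by 0.60 ± 0.07, at the 1.5-fold line, and lost its call without cirrhosis replicate 6 (0.57) or fibrosis replicate 17 (0.57). Among the genes not called were Ulk1, with a difference that rounds to 0 (standard error 0.09), Atg9a (-0.03 ± 0.06) and Map1lc3b (0.06 ± 0.07). LSEC, hepatocyte and macrophage markers were higher in cirrhosis than in fibrosis as well, by a median of 3.12, 1.79 and 4.51 on the log2 scale. The medians of the dissociation stress, stellate cell, cholangiocyte, neutrophil and lymphocyte lists were 3.60, 2.55, 3.82, 4.86 and 2.90. The part of these lists in the differences was not tested.

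**Figure D5:**
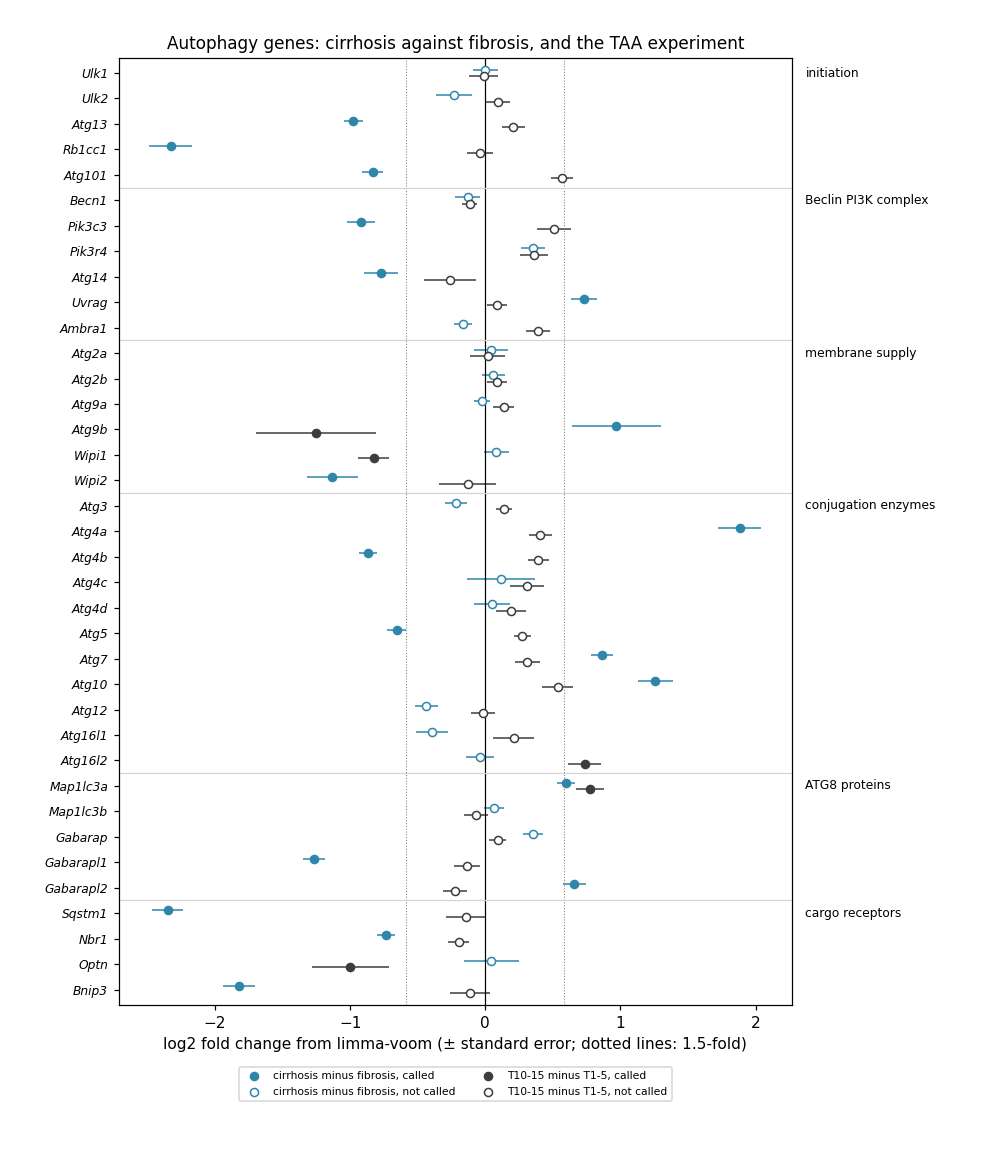
Log2 fold change (points) with standard error (lines) of the 37 autophagy genes in cirrhosis against fibrosis (6 and 5 libraries) and in T10-15 against T1-5 of the TAA experiment (5 and 5 libraries). Filled points were called and dotted lines mark a 1.5-fold change. Sqstm1, Rb1cc1 and Bnip3 are farthest to the left in cirrhosis against fibrosis, and 5 genes are filled in the TAA experiment.

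In the TAA experiment 2 of 37 genes were called higher and 3 lower in T10-15 than in T1-5, against 13.5% and 15.9% of 14376 genes. Map1lc3a was at 85.1, 87.7, 104, 73.6 and 78.8 CPM in T1-5 and at 155, 159, 157, 131 and 131 CPM in T10-15, with no overlap, a change of 0.78 ± 0.10 (adjusted p = 0.000182). Atg16l2 was higher by 0.74 ± 0.12 (adjusted p = 0.000675). Wipi1 was lower by 0.83 ± 0.12 (adjusted p = 0.000280), at 21.6 to 33.7 CPM against 13.8 to 16.1 CPM. Atg9b was lower by 1.25 ± 0.44 (adjusted p = 0.0356), and its 7.22 CPM in T1-5 replicate 4 was the highest of the 10 libraries. Optn was lower by 1.0 ± 0.29 (adjusted p = 0.0138), with overlapping ranges of 30.7 to 87.2 CPM and 20.7 to 34.8 CPM. Between the same groups 10 of 12 dissociation stress genes and 5 of 13 LSEC markers were higher in T10-15, and 7 of 10 hepatocyte and 7 of 9 stellate cell markers were lower. Their part in these differences was not tested. Without the fold threshold 14 autophagy genes were higher and 5 lower, against 29.7% and 26.9% of all genes.

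Sqstm1, Rb1cc1 and Bnip3 were not called between the TAA groups. Sqstm1 was at 261, 246, 359, 382 and 360 CPM in T1-5 and at 248.5, 250.5, 269, 339 and 336 CPM in T10-15, a difference of -0.14 ± 0.15. Rb1cc1 was at 96.0 to 132 CPM and 101.5 to 123 CPM, a difference of -0.04 ± 0.10. Bnip3 was at 13.9 to 23.4 CPM and 14.8 to 20.7 CPM, a difference of -0.11 ± 0.15. These ranges overlapped in each case. Whether the effects of CCl4 and of the TAA grouping differ was not tested, since the 2 experiments were scaled separately and the direction of the latter is not settled.

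Genes around the core pathway, taken from 6 lists of its regulators and later steps, also went both ways. Beside their counts stand the shares of all genes called, which were 35.8% higher and 38.3% lower in acute injury, 35.8% and 35.4% in fibrosis and 28.8% and 25.7% in cirrhosis. Of 20 genes of nutrient sensing, 7 were higher and 5 lower in acute injury, 7 and 5 in fibrosis and 4 and 5 in cirrhosis. Prkaa1, a catalytic subunit of the energy sensor AMPK, had the largest rise in all 3 stages, by 2.11, 2.00 and 0.89, from 13.3 to 36.6 CPM in healthy LSECs to 80.9 to 95.9 CPM in acute injury. Of 11 transcription factors linked to autophagy or lysosome genes, 3 were higher and 3 lower in acute injury, 4 and 4 in fibrosis and 4 and 3 in cirrhosis. Tfeb, the master regulator of lysosome genes, had the largest fall in each, by 1.79, 2.04 and 1.18, from 30.5 to 95.8 CPM in healthy LSECs to 11 to 17.7 CPM in fibrosis. Hif1a, the oxygen-regulated factor that activates Bnip3, had the largest rise in acute injury and fibrosis, by 3.23 and 3.13, from 35.7 to 118 CPM in healthy LSECs to 551 to 813 CPM in acute injury, and fell by 1.57 from fibrosis to cirrhosis.

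Of 11 regulators of the Beclin complex and of membrane supply, 3 were higher and 4 lower in acute injury and again in fibrosis, and 3 and 2 in cirrhosis. Vmp1, a lipid scramblase of the endoplasmic reticulum needed for autophagosome formation, rose most in the earlier stages, by 2.07 and 1.76. Rubcn, which encodes Rubicon, an inhibitor of autophagosome maturation, fell most at all stages, by 2.23, 2.21 and 0.87. Of 8 mitophagy genes 3 were higher and 3 lower in acute injury, 2 and 4 in fibrosis and 2 and 4 in cirrhosis, with the kinase gene Tbk1 highest (2.00, 2.27 and 1.36) and the receptor gene Fkbp8 lowest (-2.30, -2.45 and -1.79). Of 14 genes of fusion with lysosomes 3 were higher and 4 lower, then 2 and 7, then 2 and 6, with Tecpr1, a tether of autophagosomes to lysosomes, lowest at each stage (-2.12, -2.49 and -1.49). Other selective receptors had 5 higher and 4 lower of 11 in acute injury, 5 and 3 of 12 in fibrosis and 4 and 2 of 12 in cirrhosis.

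Promoter sequences were set beside the calls in acute injury, where 14 members were higher and 10 lower. RefSeq windows of the GRCr8 assembly, 250 bases before to 50 after the gene start, were at hand for 33 of the 37 genes, without Map1lc3a, Atg9a, Becn1 and Rb1cc1. They were searched on both strands for CACGTG (the E-box at the centre of the TFEB site), for ACGTG (the core of the hypoxia element, which every CACGTG also contains) and for TGACNNNGC (the core of the antioxidant response element). CACGTG was present in the windows of 4 of the 33 genes, Atg14, Atg3, Atg5 and Bnip3, or 12.12%, against 6.65% of all 27457 windows. All 4 were called higher in acute injury and in fibrosis, beside 35.8% of all genes tested in each stage. In acute injury 12 of the 33 genes with a window were called higher. Whether the motif and the calls are linked was not tested. ACGTG was in 10 of 33 windows (30.3%), against 19.73% of all windows, and in 7 of the 12 windows of genes called higher in acute injury, 1 of the 8 of genes called lower and 2 of the 13 of genes not called. TGACNNNGC was in 6 of 33 windows (18.18%), against 12.17% of all, and in 1 of the 12 of genes called higher. The windows of the members had a median GC content of 60.67%, against 52.33% for all, and the part of base composition in these shares was not tested. The Sqstm1 window held none of the 3, and sequence outside the windows was not searched for any gene. A match describes letters only, and these windows are of another assembly than the one to which the reads were mapped.

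The sites with CACGTG are shown with 10 bases on either side, 5′ to 3′ on the strand of the gene and with the E-box in capitals. They were chosen for printing after the calls of the 4 genes were seen. Atg3 holds 2 of them.
Atg3, chr11:69159304-69159329, minus strand: ctacttctgtCACGTGtcccgggaga
Atg3, chr11:69159281-69159306, minus strand: agattcgagtCACGTGaggcctagga
Atg5, chr20:49380806-49380831, plus strand: gggcgctggcCACGTGggcgggtgac
Atg14, chr15:23306794-23306819, minus strand: aacaaaatccCACGTGactggccctg
Bnip3, chr1:203155046-203155071, minus strand: gcacgcgccgCACGTGccacacgcgc

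The 250 bases before the start of Bnip3, which had the largest rise of these 4 genes in acute injury and fibrosis, lie at chr1:203154963-203155212 on the minus strand. The E-box is in capitals and begins 99 bases before the start. The gene was chosen for printing after its values were seen.
Bnip3: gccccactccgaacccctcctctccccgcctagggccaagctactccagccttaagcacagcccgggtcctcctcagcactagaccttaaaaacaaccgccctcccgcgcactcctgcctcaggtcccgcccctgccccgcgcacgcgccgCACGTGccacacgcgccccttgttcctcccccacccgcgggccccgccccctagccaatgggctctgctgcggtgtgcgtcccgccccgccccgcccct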

How the data were processed

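Poly(A) RNA of LSECs was sequenced from strand-specific libraries. Per the labels and the study's methods, reads were trimmed with Trim Galore, mapped to Rnor_6.0 with STAR and quantified with RSEM, without versions. What the authors deposited are expected counts, the estimates of RSEM, for 32623 genes, neither normalized nor pooled. Because RSEM splits ambiguous reads, the share of genes with a fractional count was 10.3% to 12.4% by library.

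Expected counts were rounded. Software was DESeq2 1.42.0, edgeR 4.0.16 and limma 3.58.1 under R 4.3.3, and Python 3.11.15 with matplotlib 3.10.9 for figures. For every comparison, limma-voom was run on the 2 groups concerned and the genes that filterByExpr kept, with TMM factors and no covariate, as the study's methods name limma and TMM. The filter is not given in the sources used here. CPM levels use TMM factors over the 22 CCl4 or the 10 TAA libraries. The fits were tested on simulated data in which few genes changed, in equal numbers higher and lower. That setting cannot test the scaling where many genes are called, as in these data.

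Groups come from the labels. The duration for cirrhotic libraries comes from the description of the series. Labels treat the libraries as separate samples, and p-values measure the spread between them. T10-15 replicates 14 and 15 stood nearer to one another than all remaining pairs (chi-square per degree of freedom of 3.05, against at least 25.2 in the other groups) and were kept as 2 libraries. If both came from 1 rat, the p-values of the TAA comparison count that rat as 2. With the pair counted as 1 sample, 0 calls of members were lost and 1 was gained, that of Atg101. Replicate numbers shared between groups come from different rats.

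Members and lists were chosen with earlier results of these data known. Given in full were Sqstm1, Map1lc3b, Becn1, Ulk1 and Bnip3, and the 3 largest rises and falls of each comparison with healthy LSECs and of cirrhosis against fibrosis, among members with an adjusted p-value under 0.05 and a mean log2 CPM of at least 3. Alternatives were adjusted p-values, no fold threshold, edgeR, DESeq2, other scalings and filters, weights per library, 1 fit over the CCl4 groups, a replicate block and leaving out libraries. Another counted T10-15 replicates 14 and 15 as 1 sample. Leaving out healthy replicates 5 and 6 together was added after the data were seen. The promoter of Rb1cc1, meant to be printed as the largest rise, was not in the table used here.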

Additional observations from a re-analysis of the deposited data

Results flagged for a closer look

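In groups of 5 or 6 libraries, 4 of 90 groups of values of the 15 genes given in full held a library far from the others by Dixon's criterion, where chance alone flags about 4.5. Map1lc3a was highest in cirrhosis replicate 6, at 80.1 CPM, with the nearest library at 70.3 CPM. Optn was lowest in cirrhosis replicate 2, at 32.8 CPM, with the nearest at 61.2 CPM. Atg101 was lowest in healthy replicate 6, at 29.5 CPM, with the nearest at 63.2 CPM, and highest in cirrhosis replicate 2, at 27.3 CPM, with the nearest at 23.1 CPM.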

How the results depend on the processing

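The 97 called values of autophagy genes kept their direction in all 2318 alternatives computed, and 2271 kept their call. Some of these outcomes were fixed in advance. Adjusted p-values and no fold threshold reuse the main fit, so no direction could change, and without a fold threshold no call could be lost. In cirrhosis the fit on shared numbers without a block repeats the main fit. Of the kept calls, 1064 come from fits with 1 library left out, which overlap. The 47 losses came from values near the 1.5-fold line, from low-count genes and from scaling. Without TMM factors, whose values were 0.712 to 0.939 in healthy libraries, the median of all genes moved from -0.09 to 0.32 in acute injury, from -0.03 to 0.37 in fibrosis and from 0.07 to 0.42 in cirrhosis. The members called then numbered 18, 17 and 13 higher and 5, 7 and 8 lower, and all genes split 43.3% higher to 31.4% lower, 43.4% to 28.1% and 40.0% to 16.2%. Gabarapl2, Ambra1, Atg4a, Atg4d and Ulk1 lost their calls in acute injury. Gabarapl2, Ambra1, Atg4a and Ulk1 lost them in fibrosis, and Gabarap, Ambra1, Atg16l2, Atg7 and Ulk1 in cirrhosis. edgeR changed 1 call, losing Atg4a in cirrhosis. Without a fold threshold, 7 members were higher and 5 lower in fibrosis than in acute injury, against 19.9% and 15.8% of all genes, and 14 higher and 5 lower in T10-15 than in T1-5, against 29.7% and 26.9%. Weights per library gave 1 member higher in fibrosis than in acute injury, Bnip3.

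With each library left out in turn, members called higher and lower ranged over 14 to 15 and 10 to 11 in acute injury, 14 to 15 and 11 to 15 in fibrosis, 7 to 10 and 12 to 15 in cirrhosis, 0 to 1 and 0 to 1 in fibrosis against acute injury, 6 to 7 and 12 to 12 in cirrhosis against fibrosis, and 2 to 3 and 3 to 3 in the TAA experiment. The fewest higher in cirrhosis, 7, came without healthy replicate 1. The correlations of same-numbered libraries ranged from 0.034 to 0.146 in acute injury and from -0.182 to 0.246 in cirrhosis. There 2 of 4 and 1 of 6 numbers correlated best with themselves. So few numbers cannot settle whether they link samples, and the main fits used no pairing. With the replicate block 14 members were higher and 10 lower in acute injury, and 10 and 13 in cirrhosis. On the 4 shared numbers Atg4c in acute injury rose by 1.69 with the block and by 1.70 without it, against 1.10 over all libraries, so that the shift came with the libraries left out and not with the block. Depth limits Atg9b (10 to 205 counts), Atg4c (53 to 425), Atg10 (56 to 319) and Atg4a (62 to 569).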
